A study of Mus musculus with 68 samples.

Results

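The genes described here are 33 genes of brain blood vessels, read in the prefrontal cortex of 68 young mice, wild type or heterozygous for Adnp, which encodes a chromatin-binding protein. They were given as a list of names and found by symbol among the 18088 genes of the deposited table. This list, like the other lists below, was chosen with earlier results of these data known. All 33 had a mean above the filter on low values and were tested, among 17922 genes, and none was at 0 in any library. They comprise 4 transcription factors, 4 receptors, 8 junction and surface proteins, 2 secreted factors, 4 barrier transporters, 3 matrix and filament genes, 4 contractile and adhesion genes and 4 pericyte genes.

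Brain capillaries are tubes of endothelial cells sealed by tight junctions, lined by a basement membrane of type IV collagen and laminin and covered by pericytes, while arterioles carry contractile smooth muscle. Endothelial cells sense blood flow, and flow raises the paired transcription factors KLF2 and KLF4 through the kinases MEKK3, MEK5 and ERK5 and the MEF2 factors. The same cells form the blood-brain barrier, with transporters for glucose, lipids and drugs.

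All mice were C57BL/6J, of both sexes, and were taken at postnatal day 25. Drug had been given from day 3 to day 24, for 3 weeks, by way of the milk of the mother, so the dose that reached each pup is not known from the labels, and litters are not given. HT mice are labelled heterozygous and WT mice wild type. The HT label does not name the mutation. Vehicle libraries numbered 16 in HT (8 female, 8 male) and 15 in WT (8 female, 7 male). Fluoxetine, a serotonin reuptake inhibitor, had 5 libraries in each of 4 groups of genotype and sex. Lithium, a mood stabilizer, had 9 in HT (4 female, 5 male) and 8 in WT (5 female, 3 male). Nothing in the labels says that numbered libraries of a group came from separate litters, so p-values measure the spread between these libraries.

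Recovered reads lay between 22.4M and 37.5M a library (median 30.7M; M, mega). The libraries also fell into 3 sets that the labels do not name, drawn from the levels of 361 pseudogenes. The 20 fluoxetine libraries were in set 1 with 8 from HT vehicle mice. In set 2 were the 17 lithium libraries with 6 from HT vehicle and 5 from WT vehicle mice. The other 10 from WT vehicle mice made up set 3 with 2 from HT vehicle males. Fluoxetine in HT can therefore be compared with vehicle within set 1 and lithium within set 2. No set holds both WT fluoxetine and WT vehicle, so there drug and set cannot be told apart. Adnp counts cannot check the labels, since they do not show the allele: the mean was 2261 ± 285 normalized counts (SD, n = 16) in HT vehicle and 1829 ± 361 (n = 15) in WT vehicle.

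The promoters of Klf2 and Klf4 are shown because these 2 genes had the largest differences under fluoxetine in HT over all libraries (within set 1 Klf2 stood at -0.34, behind Nes, Smtn, Sox18 and Tns2) and share upstream control by flow. RefSeq promoters (GRCm38.p6), 250 bases before to 50 after a start site, were matched for 25 of the 33 genes (28 promoters). The Klf2 window is chr8:72318812-72319111 on the plus strand and the Klf4 window chr4:55532426-55532725 on the minus strand. Capitals mark a match to the MEF2 site, a motif that was added to the search after the sequences had been seen.
Klf2: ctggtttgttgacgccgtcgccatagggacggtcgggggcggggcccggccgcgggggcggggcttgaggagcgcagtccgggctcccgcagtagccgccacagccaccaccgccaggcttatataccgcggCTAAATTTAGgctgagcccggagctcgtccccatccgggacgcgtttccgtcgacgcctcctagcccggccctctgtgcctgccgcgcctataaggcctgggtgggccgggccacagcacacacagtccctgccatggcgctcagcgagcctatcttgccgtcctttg
Klf4: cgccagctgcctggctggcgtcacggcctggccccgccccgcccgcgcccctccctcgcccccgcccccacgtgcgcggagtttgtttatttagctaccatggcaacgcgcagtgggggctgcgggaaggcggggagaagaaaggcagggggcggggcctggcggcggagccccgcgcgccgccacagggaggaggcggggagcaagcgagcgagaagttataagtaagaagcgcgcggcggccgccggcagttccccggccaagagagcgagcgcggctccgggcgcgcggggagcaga
The Klf2 window holds 1 match, and the Klf4 window holds none. The MEF2 site was searched on both strands and stood in 3.19% of all 32851 RefSeq promoters and in 2 of the 28 windows of the vessel genes, the other being that of Abcc9. The letters CACCC or their complement, a box bound by KLF factors, stood in 21 of the 28 and in 57.5% of all. AACAAT or ATTGTT, a SOX type motif, stood in 3 of the 28 (Tek, Emcn and Slco1a4) and in 10.7% of all. TGACGTCA, the cyclic AMP response element, stood in 1 (Flt1) and in 1.79% of all. The CArG box of smooth muscle promoters was in 0 of the 28 windows and in 1.63% of all. A match is a run of letters in these windows, and nothing was measured of binding.

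Under fluoxetine, HT libraries had less RNA for 18 of the 33 vessel genes than HT vehicle libraries, and more for 0, at an adjusted p under 0.05. Over all tested genes 1.22% passed, 0.809% lower and 0.407% higher. Since the list was chosen with earlier results of these data known, the 2 shares are set side by side as description only. All 33 estimates were below 0, with a median log2 difference of -0.24 against 0.00 over all tested genes, and they ran from -0.74 (Klf4) to -0.04 (Cldn5). The lower genes lay in every role except the secreted factors: 4 of 4 transcription factors, 2 of 4 receptors, 4 of 8 junction and surface genes, 1 of 4 transporters, 3 of 3 matrix and filament genes, 2 of 4 contractile and adhesion genes and 2 of 4 pericyte genes. In RNA from whole tissue, fewer vessel cells and less RNA per vessel cell cannot be told apart. For 0 of the 33 genes did the 10 fluoxetine and 16 vehicle libraries separate without overlap, where 0.00558% of all tested genes did.

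**Figure D1:**
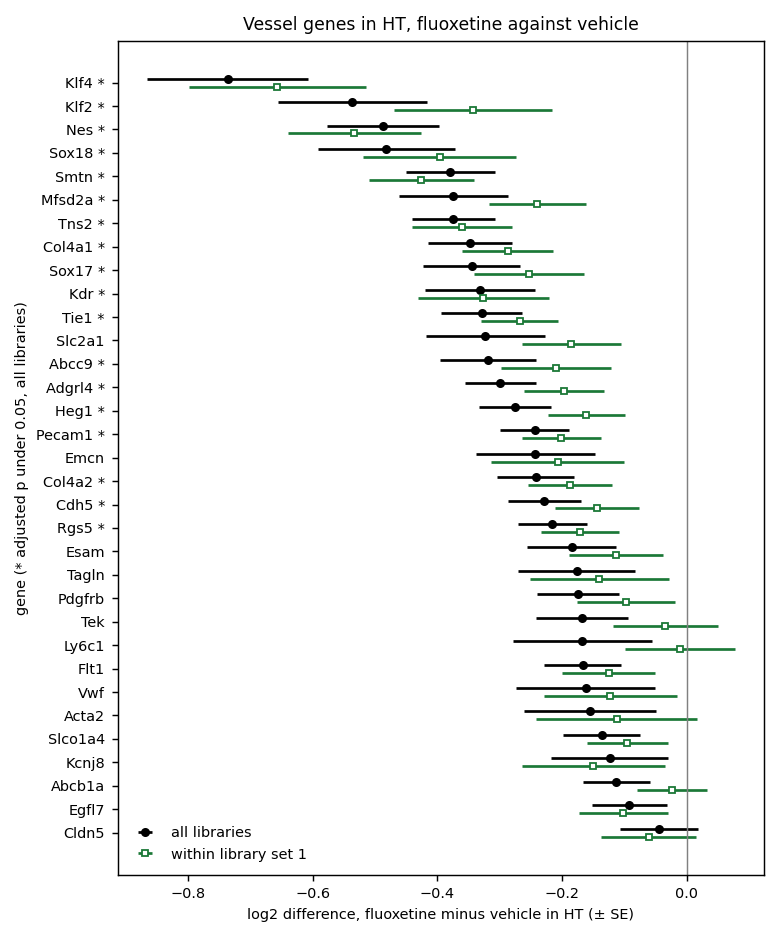
Log2 difference (x axis) of each vessel gene (y axis) between HT fluoxetine and HT vehicle, with its standard error as a bar, over all libraries (filled circles) and within library set 1 (open squares). All 33 points of both kinds lie below 0, with Klf4 at -0.74 over all libraries and -0.66 within the set, and Cldn5 at -0.04 and -0.06.

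The same comparison within library set 1, with 10 fluoxetine and 8 vehicle libraries, called 5 of the 33 genes lower and 0 higher. Klf4, Tie1, Nes, Smtn and Tns2 were those 5. Over all tested genes 0.167% passed within the set, 0.134% in the lower direction. All 33 estimates were again below 0, with a median of -0.18 against 0.00 over all genes. Estimates within the set were closer to 0 for Klf2 (-0.34 against -0.54), Mfsd2a (-0.24 against -0.37) and Ly6c1 (-0.01 against -0.17). They were as large or larger for Nes (-0.53 against -0.49), Smtn (-0.43 against -0.38) and Kdr (-0.33 in both).

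All 4 transcription factors were lower, with Klf4 and Klf2 furthest from 0 over all libraries. KLF4, a zinc finger factor that restrains endothelial inflammation, and its relative KLF2 are raised by blood flow. Klf4 (chromosome 4, 55527143 to 55532466, minus strand, GRCm38) ran from 162 to 403 normalized counts in HT vehicle libraries, with a median of 253, and from 140.5 to 186 in HT fluoxetine libraries, with a median of 161. All 10 fluoxetine libraries lay below the vehicle median and 5 lay below the lowest vehicle library. Their spread was narrow, at 162 ± 15.9 (SD, n = 10) against 282 ± 83.1 (n = 16). The log2 difference was -0.74 (SE 0.13, adjusted p = 0.0014), a fold of 0.600, and within set 1 it was -0.66 (SE 0.14, adjusted p = 0.032).

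Klf2 (chromosome 8, 72319033 to 72321656, plus strand) ran from 152 to 465 normalized counts in HT vehicle (median 307) and from 133 to 264 in HT fluoxetine (median 207). Here too all 10 fluoxetine libraries lay below the vehicle median, but only 1 lay below the lowest vehicle library. The log2 difference was -0.54 (SE 0.12, adjusted p = 0.012). Within set 1 it was -0.34 and did not pass (adjusted p = 0.27). The HT vehicle libraries of sets 1 and 2 differed in level themselves, with mean Klf2 counts of 255 ± 62.4 (n = 8) and 339 ± 75.2 (n = 6).

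SOX17 and SOX18 are factors of arterial and lymphatic endothelial identity. Sox17 had a median of 218 normalized counts in HT vehicle (146 to 313) and of 169 in HT fluoxetine (149 to 197). Its log2 difference was -0.35 (SE 0.08, adjusted p = 0.012). Sox18 had a median of 298 in HT vehicle (152 to 398) and of 216 in HT fluoxetine (126 to 259), with a difference of -0.48 (SE 0.11, adjusted p = 0.014). For both genes all 10 fluoxetine libraries lay below the vehicle median, while the ranges overlapped. Within set 1 the differences were -0.25 for Sox17 (adjusted p = 0.23) and -0.40 for Sox18 (adjusted p = 0.16). Without HT fluoxetine female 2, Sox18 stood at -0.41 over all libraries and did not pass (adjusted p = 0.059).

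**Figure D2:**
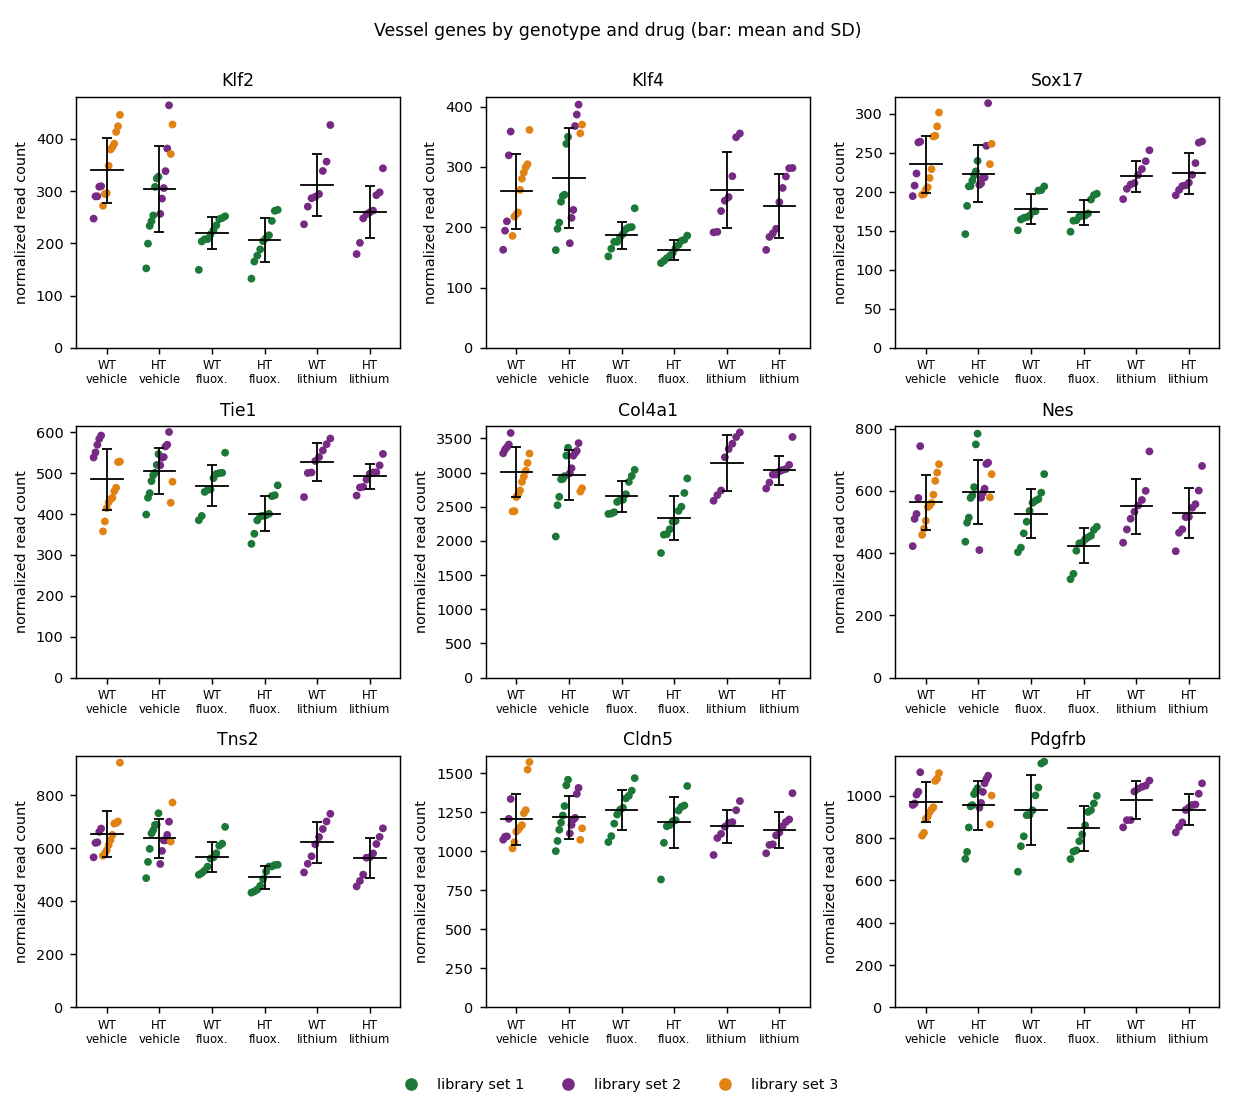
Normalized read count (y axis) of 9 vessel genes in each library by genotype and drug (x axis), coloured by library set, with the mean as a line and the SD as a bar. In Klf4 the HT fluoxetine libraries lie between 140.5 and 186, and in Cldn5 they span 818 to 1417, over the range of the vehicle libraries.

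Among the receptors, Tie1 and Kdr were lower. TIE1 is an endothelial receptor that modulates angiopoietin signalling through TEK. Tie1 ran from 399 to 601 normalized counts in HT vehicle (median 510.3) and from 327 to 470.4 in HT fluoxetine (median 397). Every fluoxetine library lay below the vehicle median, and 6 of 10 lay below the lowest vehicle library. The log2 difference was -0.33 (SE 0.06, adjusted p = 0.0047), and within set 1 it was -0.27 (SE 0.06, adjusted p = 0.044).

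KDR is the main signalling receptor for VEGF-A. Kdr had a median of 907 normalized counts in HT vehicle (612 to 1127) and of 712 in HT fluoxetine (518 to 986), and 9 of 10 fluoxetine libraries lay below the vehicle median. Its difference of -0.33 was close to the threshold (SE 0.09, adjusted p = 0.041), and in 18 of the 26 fits that left out 1 library it did not pass (adjusted p up to 0.13). Neither FLT1, the decoy receptor for VEGF-A, nor TEK, the receptor of the angiopoietins, passed the test. Flt1 differed by -0.17 (adjusted p = 0.18) and Tek by -0.17 (adjusted p = 0.27).

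Of the junction and surface genes, Adgrl4, Heg1, Pecam1 and Cdh5 were lower. ADGRL4 is an adhesion G protein-coupled receptor of endothelium. Adgrl4 ran from 545 to 813 normalized counts in HT vehicle (median 666) and from 516 to 651 in HT fluoxetine (median 537). All 10 fluoxetine libraries lay below the vehicle median and 6 below the lowest vehicle library, with a log2 difference of -0.30 (SE 0.06, adjusted p = 0.0032). HEG1 anchors the CCM proteins at endothelial junctions, a complex that holds back MEKK3 signalling. Heg1 had a median of 1343 in HT vehicle (1082 to 1887) and of 1120 in HT fluoxetine (958 to 1288), and 4 of 10 fluoxetine libraries lay below the lowest vehicle library. Its difference was -0.28 (SE 0.06, adjusted p = 0.0067).

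PECAM1 and VE-cadherin, the product of Cdh5, join endothelial cells and take part in flow sensing. Pecam1 had a median of 675 normalized counts in HT vehicle (595 to 780) and of 569 in HT fluoxetine (529 to 683). For this gene 7 of 10 fluoxetine libraries lay below the lowest vehicle library, and the difference was -0.24 (SE 0.05, adjusted p = 0.013). Cdh5 had medians of 668 (500.4 to 766) and 554 (486 to 630), and its difference was -0.23 (SE 0.06, adjusted p = 0.032). In 10 of the 26 fits that left out 1 library Cdh5 did not pass (adjusted p up to 0.086).

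The tight junction protein gene Cldn5 had the smallest difference of the junction and surface genes over all libraries. Within set 1 that of Ly6c1 was smaller. Cldn5, which encodes claudin-5, had a median of 1192 normalized counts in HT vehicle (1000.1 to 1457) and of 1195 in HT fluoxetine (818 to 1417). Its log2 difference was -0.04 (SE 0.06, adjusted p = 0.82), and 5 of 10 fluoxetine libraries lay below the vehicle median. The other surface genes that did not pass were Emcn at -0.24 (adjusted p = 0.21), Esam at -0.18 (adjusted p = 0.21) and Ly6c1 at -0.17 (adjusted p = 0.55). Emcn encodes the venous and capillary sialomucin endomucin and Esam an adhesion molecule of tight junctions. Ly6c1 has near-identical neighbours in its family, so its level is uncertain. The difference between Cldn5 and the other genes was not itself tested.

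Neither secreted factor passed. Egfl7, an endothelial matrix-bound factor, differed by -0.09 (adjusted p = 0.54) and Vwf, the clotting protein stored in endothelial cells, by -0.16 (adjusted p = 0.57). Vwf ran from 800.3 to 1259 normalized counts in HT vehicle and from 754 to 1356 in HT fluoxetine, where the highest library lay above every vehicle library.

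Of the barrier transporters 1 was lower. MFSD2A carries lysophospholipids with omega-3 fatty acids across the barrier and holds down transcytosis. Mfsd2a ran from 601 to 1131 normalized counts in HT vehicle (median 919) and from 622 to 813 in HT fluoxetine (median 659). All 10 fluoxetine libraries were below the vehicle median and none below the lowest vehicle library, with a difference of -0.37 (SE 0.09, adjusted p = 0.015). Slc2a1, the glucose transporter GLUT1, had the highest level per kilobase of exon of the 33 genes, 994 normalized counts averaged over all 68 libraries. It ran from 2883 to 5252 normalized counts in HT vehicle (median 3392) and from 2345 to 3188 in HT fluoxetine (median 2877). Slc2a1 differed by -0.32 (SE 0.10) and did not pass (adjusted p = 0.075), although all 10 fluoxetine libraries lay below the vehicle median. The organic anion carrier gene Slco1a4 (-0.14, adjusted p = 0.30) and the P-glycoprotein gene Abcb1a (-0.11, adjusted p = 0.33) did not pass either. Both belong to families with close copies, so reads may be split between members.

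All 3 matrix and filament genes were lower. COL4A1 and COL4A2 form the type IV collagen trimer of the vessel basement membrane. Col4a1 ran from 2064 to 3431 normalized counts in HT vehicle (median 2969) and from 1823 to 2914 in HT fluoxetine (median 2285), a difference of -0.35 (SE 0.07, adjusted p = 0.0036). Col4a2 had medians of 3229 (2583 to 3737) and 2705 (2327 to 3132), a difference of -0.24 (SE 0.06, adjusted p = 0.031). For both collagens all 10 fluoxetine libraries lay below the vehicle median, and the ranges overlapped. In 8 of the 26 fits that left out 1 library Col4a2 did not pass (adjusted p up to 0.10). The pair lie head to head on chromosome 8, Col4a1 on the minus strand (11198423 to 11312826) and Col4a2 on the plus strand (11312805 to 11449287, GRCm38). Their annotated ends overlap by 22 bases, and their RefSeq promoter windows share 78 bases.

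Nestin is an intermediate filament protein of dividing progenitors that endothelial cells and some pericytes of young vessels also make. Nes ran from 410.0 to 784 normalized counts in HT vehicle (median 590) and from 316 to 485 in HT fluoxetine (median 439). All 10 fluoxetine libraries lay below the vehicle median and 3 below the lowest vehicle library. The difference was -0.49 (SE 0.09, adjusted p = 0.0025), and within set 1 it was -0.53 (SE 0.11, adjusted p = 0.015). Bulk RNA does not show which cells carried it.

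Among contractile and adhesion genes, Smtn and Tns2 were lower. Smoothelin, the product of Smtn, binds actin in contractile smooth muscle, and tensin 2 links actin to integrin adhesions. Smtn ran from 266 to 450 normalized counts in HT vehicle (median 355) and from 232 to 320.1 in HT fluoxetine (median 271). Its difference was -0.38 (SE 0.07, adjusted p = 0.0029) and, within set 1, -0.43 (SE 0.08, adjusted p = 0.015). Tns2 ran from 488 to 773 in HT vehicle (median 641) and from 433 to 538 in HT fluoxetine (median 498). All 10 fluoxetine libraries were below the vehicle median for both genes, and for Tns2 5 lay below the lowest vehicle library. The Tns2 difference was -0.37 (SE 0.07, adjusted p = 0.0014) and -0.36 within set 1 (SE 0.08, adjusted p = 0.039). Smooth muscle actin and transgelin, the most used smooth muscle markers, did not pass: Acta2 differed by -0.16 (adjusted p = 0.57) and Tagln by -0.18 (adjusted p = 0.41).

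Abcc9 and Rgs5 were the lower pericyte genes. ABCC9 is the sulfonylurea receptor subunit of the potassium channel whose pore is KCNJ8, and RGS5 damps G protein signalling in pericytes. Abcc9 had a median of 300 normalized counts in HT vehicle (188 to 354) and of 226 in HT fluoxetine (189 to 313), a difference of -0.32 (SE 0.08, adjusted p = 0.021). Rgs5 had medians of 3982 (3183 to 4629) and 3393 (2995 to 4203), a difference of -0.22 (SE 0.06, adjusted p = 0.031). For both genes 9 of 10 fluoxetine libraries lay below the vehicle median. Abcc9 did not pass without HT fluoxetine male 1 (-0.30, adjusted p = 0.054), nor Rgs5 in 8 of the 26 fits that left out 1 library (adjusted p up to 0.097). Kcnj8, which lies 16247 bases from Abcc9 on chromosome 6, differed by -0.12 (adjusted p = 0.62). Pdgfrb, the receptor by which endothelial PDGF-B holds pericytes on the vessel, differed by -0.17 (adjusted p = 0.20), with 9 of 10 fluoxetine libraries below the vehicle median.

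By sex, 3 of the 33 genes were lower in HT females under fluoxetine, where 0.117% of all tested genes passed, 0.1% in the lower direction. They were Tie1 at -0.44 (SE 0.09, adjusted p = 0.026), Heg1 at -0.38 (adjusted p = 0.028) and Col4a1 at -0.43 (adjusted p = 0.038). In Tie1 the 5 fluoxetine females (327 to 397 normalized counts) all lay below the 8 vehicle females (399 to 601), as they did in Pecam1 (529 to 582 against 595 to 780) and Tns2 (484 to 538 against 549 to 701), neither of which passed. Over all tested genes 0.296% separated in this direction. In HT males 0 of the 33 passed by limma, as 0% of all genes did. At an unadjusted p under 0.05 there were 19 of the 33 and 1221 of all 17922 genes, and the largest male estimates were those of Klf4 (-0.83) and Klf2 (-0.80, both adjusted p = 0.076). The female minus male difference of the drug effect passed for 0 of the 33 genes by limma, as for 0% of all genes (2 at an unadjusted p under 0.05, where 4.46% of all genes were). Its largest value was 0.53 for Klf2 (SE 0.24), which did not pass. Of the HT vehicle females 5 were in set 1 and 3 in set 2. HT vehicle males lay 3 in set 1, 3 in set 2 and 2 in set 3. Set and drug are therefore mixed in these estimates by sex. Within set 1, 12 of the 33 genes had an unadjusted p under 0.05 in females, where 9.36% of all genes did. Over all libraries females had 20, where 11.4% of all genes did. In males there were 12 within the set, where 6.2% of all genes did. For the sex difference 1 gene did, where 4.32% of all genes did.

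In WT mice, fluoxetine libraries had less RNA than vehicle libraries for 8 of the 33 genes and more for 0. Over all tested genes 5.43% passed, 2.29% in the lower direction. The 8 genes were Klf2, Klf4, Sox17, Cdh5, Adgrl4, Heg1, Abcc9 and Rgs5. Estimates were below 0 for 30 of the 33, with a median of -0.16 against 0.00 over all genes. The WT fluoxetine libraries were all in set 1 and the WT vehicle libraries in sets 2 and 3, so drug and set cannot be told apart here.

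Klf2 ran from 247 to 446 normalized counts in WT vehicle (median 309) and from 149 to 252 in WT fluoxetine (median 221). The difference was -0.62 (SE 0.12, adjusted p = 0.0030). Mean Klf2 was 289 ± 25.2 (SD, n = 5) in the WT vehicle libraries of set 2 and 365 ± 59.9 (n = 10) in those of set 3, both above the 219 ± 30.4 (n = 10) of WT fluoxetine. Sox17 ran from 194 to 301 in WT vehicle (median 223) and from 150.5 to 207 in WT fluoxetine (median 172), a difference of -0.39 (SE 0.08, adjusted p = 0.0042). Its means in WT vehicle were alike in both sets, 230.4 ± 31.9 (n = 5) in set 2 and 237 ± 40.2 (n = 10) in set 3. Klf4 had medians of 262 (163 to 361) and 186 (152 to 231), a difference of -0.44 (SE 0.13, adjusted p = 0.035). For all 3 factors the ranges overlapped. In 11 of the 25 fits that left out 1 library Klf4 did not pass in WT (adjusted p up to 0.070). The WT vehicle libraries of sets 2 and 3 do not show the vehicle level of set 1. In HT vehicle, mean Sox17 was 205 ± 29.4 (n = 8) in set 1, 238 ± 41.2 (n = 6) in set 2 and 248 (n = 2) in set 3. In the same order, HT vehicle means were 255, 339 and 400 for Klf2 and 250, 296 and 363 for Klf4.

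The surface and mural genes called in WT had estimates near those in HT. Adgrl4 differed by -0.28 in WT (SE 0.06, adjusted p = 0.0051), Heg1 by -0.28 (adjusted p = 0.0060) and Cdh5 by -0.22 (adjusted p = 0.026). Without WT fluoxetine female 2, male 4 or male 5 Cdh5 did not pass (adjusted p up to 0.064). Abcc9 differed by -0.32 (adjusted p = 0.012) and Rgs5 by -0.23 (adjusted p = 0.015). Estimates further from those in HT were those of Tie1 (-0.03, adjusted p = 0.80) and Nes (-0.09, adjusted p = 0.58). Mean Tie1 in WT vehicle was 567 ± 22.3 normalized counts (SD, n = 5) in set 2 and 444 ± 54.8 (n = 10) in set 3. The 469 ± 50.2 (n = 10) of WT fluoxetine lay between them, so the estimate for Tie1 depends on the vehicle set. The test of the difference in drug effect, HT minus WT, gave -0.29 for Tie1 (SE 0.09, adjusted p = 0.20) and -0.39 for Nes (SE 0.13, adjusted p = 0.22). For 0 of the 33 genes did that difference pass by limma, as for 0% of all genes. At an unadjusted p under 0.05 there were 3 of the 33 (Tie1, Nes and Kcnj8), where 12.2% of all genes were. WT fluoxetine and WT vehicle share no set, so genotype and set cannot be told apart in this difference.

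Between HT and WT mice that had both received fluoxetine, all in set 1, 0 of the 33 genes passed when the spread was estimated over all groups (1.98% of all genes did). Here 7 had an unadjusted p under 0.05, where 12.6% of all genes did, and edgeR and DESeq2 each called 0. In the fit by group and set 1 gene passed, against 2.85% of all genes (1.07% in the lower direction): Tie1 was lower in HT by 0.23 on the log2 scale, at -0.23 (SE 0.06, adjusted p = 0.016). Its counts ran from 327 to 470.4 in HT fluoxetine and from 385 to 550.2 in WT fluoxetine.

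**Figure D3:**
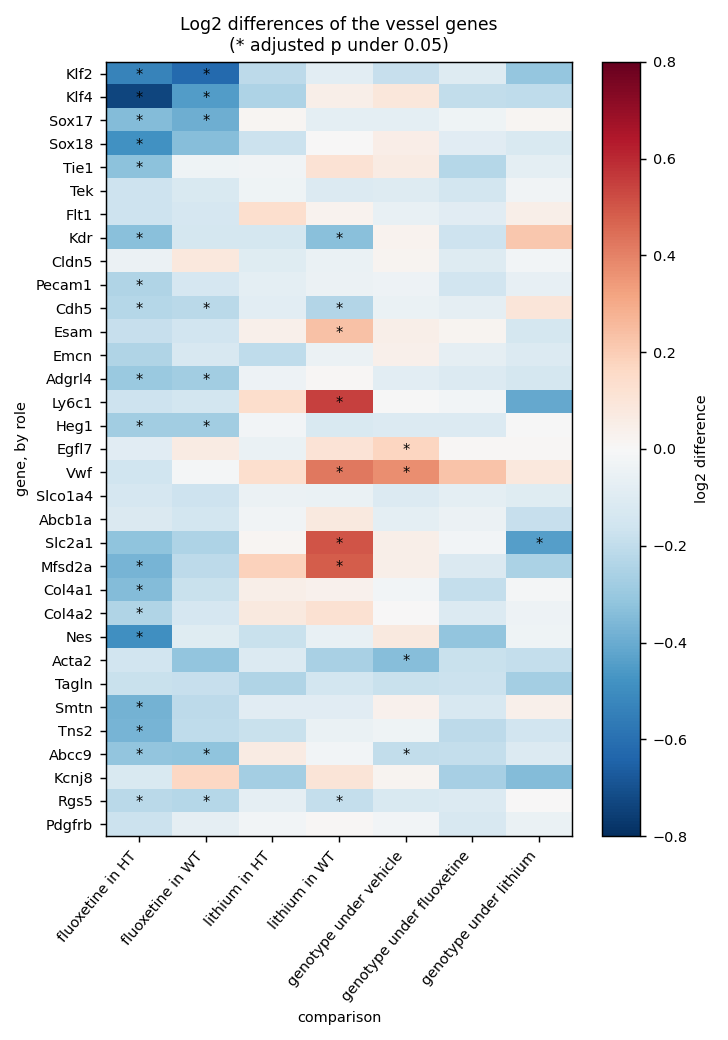
Log2 difference (colour) of the 33 vessel genes (y axis, in order of role) in 7 comparisons over all libraries (x axis), with a star where the adjusted p was under 0.05. The fluoxetine column of HT holds 18 stars, all for lower genes, that of WT holds 8, and the lithium column of HT holds 0.

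Genes of other vessel lists were read in the same way for fluoxetine in HT, where 0.809% of all genes were lower. Of 26 further endothelial genes 6 were lower and 0 higher, with a median of -0.17. They included Robo4, a receptor that stabilizes vessels (-0.43, adjusted p = 0.0047), Ramp2, the adrenomedullin receptor subunit (-0.36, adjusted p = 0.0064), Eng, a co-receptor for BMP9 (-0.35, adjusted p = 0.0076), and Icam2, an adhesion molecule (-0.45, adjusted p = 0.014). Of 10 further pericyte genes 3 were lower: Foxf2, a factor needed for pericyte differentiation (-0.48, adjusted p = 0.0046), the receptor gene Notch3 (-0.37) and Atp13a5 (-0.22). Of 11 further smooth muscle genes 2 were lower, the myosin chains Myh11 (-0.38) and Myl9 (-0.28). Of 12 further basement membrane genes 2 were lower, the laminin chains Lamc1 (-0.25) and Lama5 (-0.29). All 12 estimates were below 0, 11 of them at an unadjusted p under 0.05, where 13.7% of all genes were. Within set 1, 0 genes of these 4 lists passed by limma, with medians of -0.12, -0.11, -0.16 and -0.20 in the order given. At an unadjusted p under 0.05 there were 11 of 26, 4 of 10, 2 of 11 and 8 of 12, where 10.8% of all genes were.

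Signalling lists around these genes differed in their counts. For fluoxetine in HT, 13.7% of all tested genes had an unadjusted p under 0.05. Of 19 vessel growth ligands and receptors 5 were lower in HT under fluoxetine, among them Notch1 (-0.31), Notch4 (-0.37), the VEGF-C receptor gene Flt4 (-0.33) and Acvrl1, the receptor for BMP9 (-0.26). Of 10 genes that act upstream of KLF2 and KLF4, 0 passed by limma (1 at an unadjusted p under 0.05), with a median of -0.02. The kinase genes Map3k3 (-0.06, adjusted p = 0.50) and Mapk7 (-0.01, adjusted p = 0.91) and Mef2c (0.00, adjusted p = 0.99) were among them, and they are expressed well beyond vessels. Of 8 targets of these factors 0 passed by limma (3 at an unadjusted p under 0.05), with a median of -0.10. The list was not divided by whether the factors raise or lower a target, so its median does not measure their effect. Nos3, which encodes endothelial nitric oxide synthase, stood at -0.24 (adjusted p = 0.074) and Thbd, the thrombomodulin gene, at -0.11 (adjusted p = 0.61). Map3k3, Mapk7, Mef2c, Nos3 and Thbd are named after their values were seen. Of 12 genes of the Wnt pathway that forms the barrier 0 passed by limma (5 at an unadjusted p under 0.05), with a median of -0.06.

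Markers of other cells were read beside the vessel genes, and their part in the result was not tested. In HT under fluoxetine 0 of 10 astrocyte, 0 of 10 microglia, 0 of 10 neuron and 0 of 10 oligodendrocyte markers passed by limma, with medians of -0.11, -0.10, 0.06 and -0.28. At an unadjusted p under 0.05 there were 6, 5, 1 and 4 of them over all libraries and 0, 0, 2 and 0 within set 1. Of all tested genes 13.7% were under it over all libraries and 10.8% within set 1. The summed oligodendrocyte markers ran from 105152 to 232178 normalized counts in HT vehicle and from 86112 to 178958 in HT fluoxetine. Of 8 oligodendrocyte precursor markers 1 was lower, Enpp6 (-0.42, adjusted p = 0.035). Of these 8, 5 had an unadjusted p under 0.05 over all libraries and 2 within set 1. Of 11 perivascular fibroblast and meningeal markers and of 6 perivascular macrophage markers 0 passed by limma (2 and 0 at an unadjusted p under 0.05), with medians of -0.03 and -0.10. Haemoglobin and other red blood cell genes (0 of 5 passed) summed to between 6467 and 23128 in HT fluoxetine and between 7481 and 20159 in HT vehicle. Choroid plexus markers (0 of 8 passed by limma, 1 at an unadjusted p under 0.05) summed to between 127 and 1840 in HT fluoxetine and between 108 and 537 in HT vehicle. Of 17 immediate early genes 0 passed by limma, with a median of -0.01 over all libraries and -0.18 within set 1. At an unadjusted p under 0.05 there were 2 of them over all libraries and 4 within the set.

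Lithium was read in the same genes. In HT, 0 of the 33 passed by limma against vehicle, where 1.52% of all genes did, and 6 had an unadjusted p under 0.05, where 16.9% of all genes did. EdgeR and DESeq2 each called 0. The median was -0.05, with 23 estimates below 0. The nearest to passing was Kcnj8 at -0.27 (SE 0.10, adjusted p = 0.13), with 80.2 to 135 normalized counts in HT lithium against 94.4 to 155 in HT vehicle. Klf4 in HT lithium ran from 162 to 298 (median 242), a range that overlapped that of vehicle. Within set 2, 0 of the 33 passed by limma, and 0.162% of all genes did. There 9 of the 33 had an unadjusted p under 0.05, where 10.7% of all genes did.

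In WT, lithium libraries differed from vehicle at 8 of the 33 genes, 5 higher and 3 lower, where 36.1% of all genes passed (18.6% higher, 17.5% lower). The members' share was below that of all genes. Slc2a1 (0.50, adjusted p = 1.3e-04), Mfsd2a (0.49), Ly6c1 (0.55), Vwf (0.42) and Esam (0.23) were higher, and Kdr (-0.33), Cdh5 (-0.23) and Rgs5 were lower. Esam did not pass without WT lithium male 2 (adjusted p = 0.065), nor Rgs5 without WT lithium male 1 (adjusted p = 0.092). Within set 2, with 8 lithium and 5 vehicle libraries, 0 of the 33 passed by limma, where 0.664% of all genes passed, and 4 had an unadjusted p under 0.05, where 12.1% of all genes did. The estimates there were 0.09 for Slc2a1, 0.18 for Mfsd2a, 0.11 for Ly6c1, -0.04 for Vwf and 0.05 for Esam. Of the 3 lower genes, Cdh5 stood at -0.22 (adjusted p = 0.23), near its value over all libraries, Kdr at -0.15 (adjusted p = 0.69) and Rgs5 at -0.07 (adjusted p = 0.78).

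The WT vehicle libraries of the 2 sets lay apart at Slc2a1, Ly6c1 and Vwf, and lay close at Cdh5. Slc2a1 stood at 4493 ± 641 normalized counts (SD, n = 5) in WT vehicle of set 2 and at 2997 ± 379 (n = 10) in set 3, against 4741 ± 570 (n = 8) in WT lithium, which is all in set 2. Ly6c1 stood at 1060 ± 123 and 706 ± 165 in the vehicle sets and at 1154 ± 124 in WT lithium. Vwf stood at 1079 ± 44.9 and 683 ± 146, against 1062 ± 117. For these 3 genes the lithium mean lay nearer to that of the vehicle libraries of its own set. Cdh5 stood at 680.3 ± 54.2 in set 2 and 685 ± 77.0 in set 3, against 605 ± 102 in WT lithium.

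**Figure D4:**
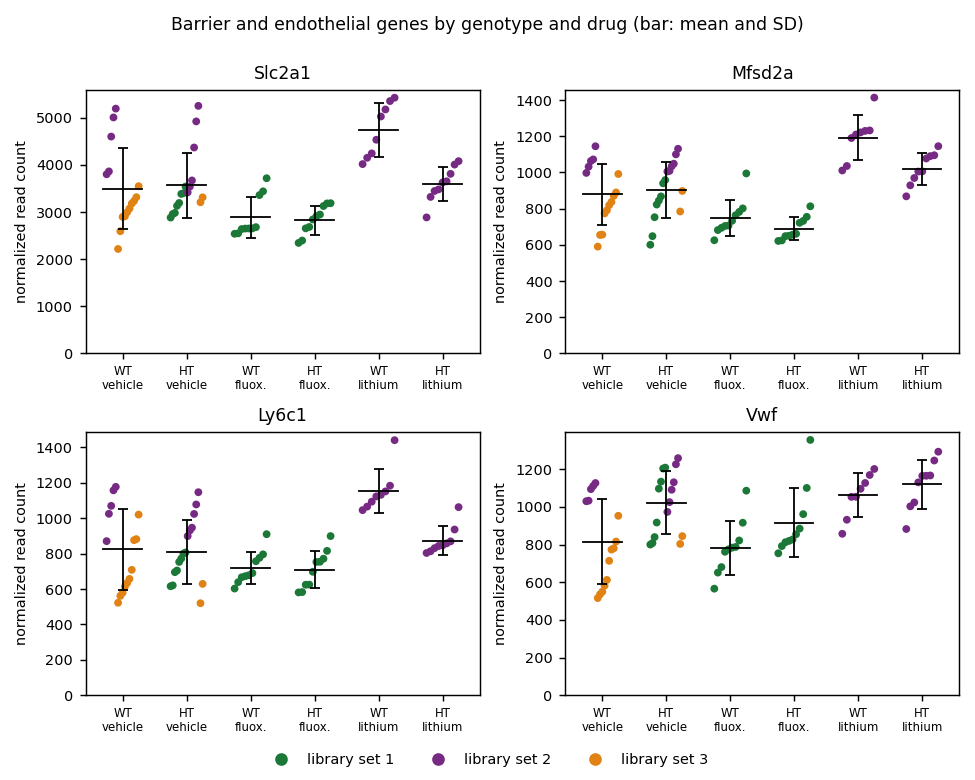
Normalized read count (y axis) of Slc2a1, Mfsd2a, Ly6c1 and Vwf in each library by genotype and drug (x axis), coloured by library set, with the mean as a line and the SD as a bar. The WT vehicle libraries divide by set, with Slc2a1 at a mean of 4493 in set 2 and 2997 in set 3.

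Between genotypes under lithium, all libraries were in set 2. Slc2a1 was lower in HT, at 2886 to 4080 normalized counts (median 3627) against 4017 to 5426 in WT (median 4780). Only the highest HT library reached the WT range. The log2 difference was -0.44 (SE 0.12, adjusted p = 0.029), and 1 of the 33 genes passed, against 2.51% of all genes (1.03% lower in HT). Without HT lithium female 3, WT lithium female 3 or WT lithium male 1 or 2 it did not pass (adjusted p up to 0.086). In the fit by group and set 3 of the 33 passed, against 4.49% of all genes (2.34% lower in HT): Slc2a1 (-0.44, SE 0.08, adjusted p = 4.4e-04), Ly6c1 (-0.41, SE 0.09, adjusted p = 0.0038) and Abcb1a (-0.19, SE 0.06, adjusted p = 0.048). Ly6c1 ran from 804 to 1063 in HT lithium and from 1046 to 1440.5 in WT lithium. The difference in lithium effect between genotypes passed for 2.8% of all genes and for 0 of the 33, Slc2a1 coming nearest (-0.49, SE 0.15, adjusted p = 0.051; -0.31 within set 2, adjusted p = 0.46).

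Under vehicle, 4 of the 33 genes differed between HT and WT, where 15% of all genes did (7.74% higher in HT, 7.21% lower). Set 1 held 8 of the 16 HT vehicle libraries and no WT vehicle library. Set 3 held 10 of the 15 WT vehicle libraries and 2 from HT. Genotype and set are therefore mixed in the estimates over all libraries. Vwf (0.37, adjusted p = 0.0091) and Egfl7 (0.17, adjusted p = 0.025) were higher in HT, and Acta2 (-0.34, adjusted p = 0.012) and Abcc9 (-0.19, adjusted p = 0.045) were lower. Acta2 ran from 301 to 530 normalized counts in HT vehicle (median 420.2) and from 388 to 726 in WT vehicle (median 498). Abcc9 did not pass in 20 of the 31 fits that left out 1 library (adjusted p up to 0.093), nor with TMM rescaling or edgeR, and Egfl7 did not without WT vehicle female 1, male 1 or male 5 (adjusted p up to 0.062). Within set 2, 0 of the 33 passed by limma (0 at an unadjusted p under 0.05, where 5.84% of all genes were), where 0.536% of all genes passed, with 0.05 for Vwf, 0.12 for Egfl7, -0.33 for Acta2 and -0.18 for Abcc9.

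Set directly against lithium in HT, fluoxetine libraries were lower at 13 of the 33 genes and higher at 0, where 10.7% of all genes passed and 6.09% were lower. The drugs lay in different library sets, so drug and set cannot be told apart. The largest of the 13 were Mfsd2a (-0.56, SE 0.10, adjusted p = 1.9e-04), Klf4 (-0.49, SE 0.15, adjusted p = 0.024) and Col4a1 (-0.39, SE 0.08, adjusted p = 7.1e-04). In WT 12 of the 33 were lower, against 16.5% of all genes called and 8.94% lower.

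Across the 68 libraries, after the mean of each group was taken out, Klf2 and Klf4 varied together. Pearson's r was 0.72 and Spearman's rho 0.68, each with a two-sided permutation p of 1e-05, the smallest that 100000 resamples within groups can give (3e-05 when adjusted over 3 relations). Without the 2 libraries farthest from the median of Klf2, r was 0.66. It was 0.66 within set 1 (n = 28), 0.77 within set 2 (n = 28) and 0.69 within set 3 (n = 12). The immediate early gene Fos, which ran from 295 to 2395 normalized counts over the arms, was less close to Klf2, with r = 0.24 (permutation p = 0.086, adjusted 0.13) and rho = 0.31 (permutation p = 0.024, adjusted 0.036). Within the sets r of Klf2 with Fos was 0.58, 0.09 and 0.02, so the relation did not hold within each set. For Klf4 with Fos r was 0.10 (permutation p = 0.49) and rho 0.21 (permutation p = 0.14), and r was 0.53, -0.16 and 0.20 within the sets.

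**Figure D5:**
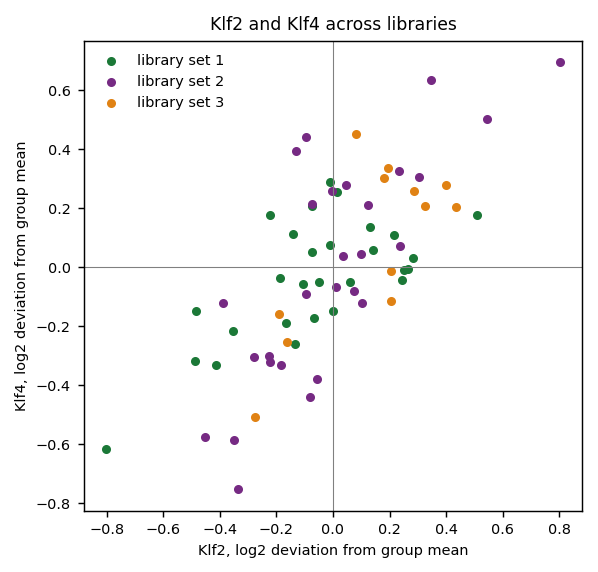
Deviation of Klf4 (y axis) against that of Klf2 (x axis) from the mean of its group on the log2 scale, 1 point for each of the 68 libraries, coloured by library set. The points rise together in all 3 sets, with r = 0.66, 0.77 and 0.69.

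With the mean of each group within each library set taken out, the other vessel genes also varied together. On this measure r of Klf2 with Klf4 was 0.68. These values are described with no test, since the libraries share depth and tissue sampling. The 231 pairs of endothelial genes had a median r of 0.45, the 28 pairs of mural genes 0.33 and the 176 pairs of an endothelial and a mural gene 0.36, against 0.00 for the 33 genes with all tested genes. The closest pairs were Col4a1 with Col4a2 (r = 0.81), Cdh5 with Pdgfrb (r = 0.80) and Esam with Mfsd2a (r = 0.78). Acta2 with Tagln, both of smooth muscle, stood at 0.76. These 2 had the lowest median r with the endothelial genes, 0.18 for Acta2 and 0.17 for Tagln, and Cdh5 had the highest, 0.56. Klf4 (0.30) and Klf2 (0.33) were among the endothelial genes least tied to the rest.

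Levels per kilobase of exon over all libraries ordered the 33 genes from Slc2a1 (994 normalized counts), Rgs5 (861) and Cldn5 (846) down to Emcn (31.9). Klf2 stood at 152 and Klf4 at 77.7 on this scale, and Abcc9 at 35.5. Of Slc2a1, Rgs5 and Cldn5, only Rgs5 passed as lower under fluoxetine in HT.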

How the data were processed

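The authors deposited 1 table of 68 columns, whose signal values are read counts scaled by 1 size factor in each library. Tools were Salmon 0.11.2, R 3.6.0 and DESeq2 1.19.11, on GRCm38, per the submitters' processing notes, which give no roles. Libraries were made with a stranded mRNA kit per the labels' protocols. Whole reads were recovered from the steps of the values (100% whole within 0.01 in each library) and served edgeR 4.0.16 and DESeq2 1.42.0 as alternatives.

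Tests used limma 3.58.1 (R 4.3.3; trend, robust) on log2(value + 1) with 12 groups in 1 fit. An effect over both sexes averages the contrasts of females and of males. The filter was a mean of 5 or more (17922 genes), and p-values were adjusted by Benjamini-Hochberg over all of them. Folds are back-transformed from log2(value + 1), so changes of low genes are understated. Unless named, an adjusted p is from limma. edgeR had been planned for raw counts; the values are normalized, so limma took its place. Symbols and positions are from GENCODE vM21 (GRCm38, 18077 genes matched).

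Library sets were clustered (average linkage, correlation distance) on 361 pseudogenes, each centred on its mean, and a fit of group by set gave contrasts within sets. On simulated data for the fluoxetine comparison in HT, the code recovered 66% of genes changed by 0.5 and 93% of those changed by 1 on the log2 scale. It made 7 false calls. Changes under 0.5, library sets and fits within a set were not simulated. The members and lists were chosen with earlier results of these data known. All 33 members are named; other lists name up to 4 passing genes with the smallest p. Alternatives were pseudocounts 0.5 and 5, no filter, TMM rescaling, edgeR, DESeq2, a replicate block, fits within sets and leaving out each library.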

Additional observations from a re-analysis of the deposited data

Results flagged for a closer look

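Among the 18 genes lower under fluoxetine in HT, the highest or lowest library was checked in each group of 4 to 10 libraries, and 10 of 198 checks (5.05%) found a library far from the rest by Dixon's gap; chance alone gives about 1 in 20. WT vehicle male 7 was highest at Pecam1 (884 normalized counts, others 601 to 716), Adgrl4 (902, others 641 to 747) and Heg1 (1951, others 1361 to 1572). WT lithium female 5 was lowest at Cdh5 (534, others 693 to 700) and Abcc9 (229, others 355 to 400.2). WT vehicle female 1 was lowest at Adgrl4 (600.0, others 695 to 767). HT lithium female 4 was highest at Col4a2 (4261, others 3170 to 3292). In the HT fluoxetine groups, female 2 was lowest at Smtn (237, others 269 to 277), and male 5 was highest at Tns2 (531, others 433 to 459). WT vehicle male 3 was highest at Tns2 (924, others 593 to 694).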

How the results depend on the processing

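For fluoxetine in HT the count of 18 lower genes was 18 or 19 with pseudocounts 0.5 and 5, no filter, TMM rescaling, edgeR and DESeq2, and 5 within library set 1. Chosen after seeing the data, a fit without the 2 HT vehicle males of set 3 gave 15 (Kdr, Cdh5 and Rgs5 did not pass) and one of HT libraries only gave 19. Leaving out 1 library gave 13 to 19 there, 7 to 10 (main 8) for fluoxetine in WT, 0 to 0 for lithium in HT and 7 to 9 (main 8) for lithium in WT. It gave 2 to 5 (main 4) for genotype under vehicle, with 2 when WT vehicle male 1 or 5 was left out. Genotype under fluoxetine gave 0 to 1, with 1 when WT fluoxetine male 4 or 5 was out. Genotype under lithium gave 0 to 2 (main 1): 0 without HT lithium female 3, WT lithium female 3 or WT lithium male 1 or 2, and 2 without HT lithium female 4 or male 4. Within set 2 lithium in WT gave 0 and genotype under vehicle 0, genotype under lithium gave 3, and within set 1 genotype under fluoxetine gave 1. Vwf under lithium in WT reversed within set 2, to -0.041. The cause of these moves was not tested.

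Replicate numbers did not pair the libraries: same-numbered libraries of 2 groups had a median correlation of deviations of -0.01. Of these pairs 72 of 313 were over 0.1, and of pairs with other numbers 421 of 1791. With the replicate block, fluoxetine gave 14 genes in HT and 11 in WT, lithium 5 in HT (4 higher, 1 lower) and 11 in WT, and genotype 5 under vehicle, 1 under fluoxetine and 2 under lithium. Vehicle libraries numbered 6 or above were all in set 2, and no drug group had a number above 5. The block therefore sets lithium, all in set 2, mainly against vehicle libraries of other sets. In those 2 lithium counts drug and set cannot be told apart.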
